A study of Mus musculus with 48 samples.

Results

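The core circadian clock genes Arntl, Clock, Npas2, Per1, Per2, Per3, Cry1, Cry2 and Ciart were followed in RNA sequencing libraries of enteroendocrine cells (EECs), the hormone-secreting cells of the gut epithelium. They are 9 of the 53465 genes in the deposited count table, and 9 of 9 passed the filter on low counts that left 15126 genes for testing. The genes were listed by name as components of the clock and chosen by the log2 fold changes between surgery groups that earlier work on these libraries had given, so that differences between surgery groups are given here as a description without p-values. Differences between gut regions, the interaction of surgery with region and the relation of members to each other over mice were tested.

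The study asked how vertical sleeve gastrectomy (VSG), the removal of most of the stomach along its greater curvature, affects EECs in lean mice. All animals were male, about 20 weeks old at surgery and of the strain labelled Neurod1-cre-eYFP on a C57BL6 background, in which Cre driven by the Neurod1 promoter switches on EYFP in EECs and leaves it on. VSG mice were compared with 2 sham groups in which a suture followed the line of the cut without constraining the stomach: sham ad libitum (sham AL) mice ate chow freely, whereas sham weight-matched (sham WM) mice were fed 2 times daily so that their body weight followed that of the VSG mice. In every group mice lived on a cycle of 12 h light, received liquid diet around the operation and chow afterwards, and were fasted overnight before tissue was collected 6 weeks after surgery, about 15 min after a glucose gavage of 3 g/kg. CD45-negative EYFP-positive cells were sorted from the top 5 cm of the small intestine (duodenum), its bottom 15 cm (ileum) and the colon with rectum (colon), and each region had 5 sham AL, 5 sham WM and 6 VSG libraries from 17 mice in all. The clock time at which each mouse was killed is not given in the sources used here.

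In the molecular clock, CLOCK or its relative NPAS2 pairs with BMAL1, the product of Arntl, on E-box sequences and activates transcription. Among the activated genes are Per1, Per2, Per3, Cry1 and Cry2, whose proteins accumulate and repress that pair, as well as Ciart, whose product CHRONO is a further repressor. A second loop of REV-ERB and ROR factors controls Arntl, and the D-box binding factors DBP and TEF with their antagonist NFIL3 act on Per genes. Arntl and Per transcripts therefore cycle in opposite phase in most peripheral tissues, and in the gut the time of feeding is known to set the phase.

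The 4 promoters below were chosen to show the letters through which members of the loop are known to act on each other. They are RefSeq promoter sequences on GRCm38.p6, read 5′ to 3′ on the strand of the gene, with bases inside annotated exons left off, and the searched motifs are in capitals. Distances run from the first base of a motif to the RefSeq transcript start, with 23 exonic bases between the printed stretch and that start for Ciart, 10 for Cry1 and 1 for Per1. Ciart at chr3:95882252-95882478 on the minus strand holds the E-box CACGTG 3 times within 227 bases, at 116, 58 and 44 bases before that start. Per1 at chr11:69098699-69098947 on the plus strand holds an E-box 166 bases, the ROR core AGGTCA on the other strand 137 bases and a D-box 24 bases before the start. Cry1 at chr10:85185065-85185304 on the minus strand holds the E-box-like CACGTT 79 bases and an E-box 60 bases before the start. Per3 at chr4:151044666-151044915 on the minus strand holds 2 D-boxes, at 205 and 158 bases.
Ciart: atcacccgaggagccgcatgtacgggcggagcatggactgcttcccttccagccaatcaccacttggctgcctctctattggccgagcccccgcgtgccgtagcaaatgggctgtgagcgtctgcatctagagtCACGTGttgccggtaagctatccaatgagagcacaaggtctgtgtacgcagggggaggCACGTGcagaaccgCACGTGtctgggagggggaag
Per1: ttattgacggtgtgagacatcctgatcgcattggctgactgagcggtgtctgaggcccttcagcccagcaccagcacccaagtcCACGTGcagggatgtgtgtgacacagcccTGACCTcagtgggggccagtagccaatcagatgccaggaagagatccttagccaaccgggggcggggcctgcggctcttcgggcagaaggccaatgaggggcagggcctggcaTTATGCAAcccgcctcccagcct
Cry1: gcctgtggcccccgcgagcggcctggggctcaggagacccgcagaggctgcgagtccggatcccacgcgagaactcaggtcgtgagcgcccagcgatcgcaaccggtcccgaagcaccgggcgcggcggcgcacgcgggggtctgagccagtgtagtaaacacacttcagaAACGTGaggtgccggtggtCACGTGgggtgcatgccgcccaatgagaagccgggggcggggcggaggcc
Per3: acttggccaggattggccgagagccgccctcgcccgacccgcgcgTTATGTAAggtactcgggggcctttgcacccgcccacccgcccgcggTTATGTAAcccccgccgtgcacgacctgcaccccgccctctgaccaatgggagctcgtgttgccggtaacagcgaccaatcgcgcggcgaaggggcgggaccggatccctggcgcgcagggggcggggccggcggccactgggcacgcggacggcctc
Over 32851 mouse promoters of 250 bases searched on both strands, 6.02% hold CACGTG, 3.85% CACGTT, 14% AGGTCA and 1.61% a D-box, searched as TTATGTAA, TTACGTAA, TTATGCAA or TTGCATAA. The cAMP element TGACGTCA, held by 1.55% of promoters, was searched too and found in none of the members' promoters. No promoter of Per2 was searched. Of the others, Cry2 holds CACGTT at 166 bases and the third promoter of Clock holds AGGTCA at 119 bases before the start, and none of these letters was found in the windows of Arntl and Npas2, the other two of Clock and the second of Per1. A match describes the sequence and was not tied to binding in these cells.

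All 9 genes lie on autosomes of GRCm38: Arntl at chr7:113207465-113314126 on the plus strand (ENSMUSG00000055116), Clock at chr5:76209868-76304792 on the minus strand (ENSMUSG00000029238), Npas2 at chr1:39193731-39363236 on the plus strand (ENSMUSG00000026077), Per1 at chr11:69095217-69109960 on the plus strand (ENSMUSG00000020893), Per2 at chr1:91415982-91459324 on the minus strand (ENSMUSG00000055866), Per3 at chr4:151003652-151044665 on the minus strand (ENSMUSG00000028957), Cry1 at chr10:85131700-85185064 on the minus strand (ENSMUSG00000020038), Cry2 at chr2:92403646-92434043 on the minus strand (ENSMUSG00000068742) and Ciart at chr3:95878503-95882251 on the minus strand (ENSMUSG00000038550). Exons of Arntl overlap those of the antisense gene Gm45355 by 33 bases and exons of Cry2 those of D930015M05Rik by 295 bases. The library kit was stranded, but whether the count used the strand is not stated in the sources used here, so reads of those stretches are uncertain.

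Total counts ran from 4648651 to 17182463 per library with a median of 6713018, and the ranges overlapped between the surgery groups. The EEC markers Neurod1, Chga, Chgb, Scg2, Scg3 and Pcsk1n were detected in every library, and their summed level ran from 11310 to 99640 counts per 1000000 (CPM). The duodenum library of sham WM mouse 27 stood apart, with the lowest EEC sum and an enterocyte marker sum of 36940 CPM against a group median of 5519 CPM. For sham AL mouse 12 region codes and tissue labels disagree between ileum and colon, and the labels were followed. Libraries are pools of sorted cells, in which fewer cells of a type and less RNA per cell cannot be told apart, and each gives 1 point in time.

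All members other than Ciart had counts in every library. On the scale of CPM per kilobase of exon, mean levels over the 48 libraries were 9.63 ± 2.74 (SD) for Cry2, 8.94 ± 1.34 for Clock, 7.91 ± 1.94 for Npas2, 7.68 ± 2.45 for Per1, 4.96 ± 1.35 for Per2, 4.33 ± 1.29 for Cry1, 3.18 ± 1.25 for Arntl, 1.76 ± 0.605 for Per3 and 0.368 ± 0.341 for Ciart. In this order the mean ± SD ranges of neighbours overlapped for every pair except Per3 and Ciart. The activators thus held places across the order, with Clock and Npas2 above Arntl, their shared partner. Ciart had between 0 and 22 counts per library, and its values are coarse.

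Arntl encodes the activator that the complex cannot do without. Its transcript had the lowest mean in sham WM mice in each region. VSG and sham AL mice had levels in the same range in the duodenum and colon. In the ileum the VSG mean of 27.5 CPM lay between 33.7 CPM in sham AL and 17.4 CPM in sham WM mice. The VSG median there lay below every sham AL library. In the duodenum the Arntl level was 17.8, 21.6, 22.6, 23.5 and 26.4 CPM in sham AL mice, 9.84, 11.7, 15.2, 17.6 and 17.6 CPM in sham WM mice, and from 17.3 over a median of 20.6 to 30.9 CPM in VSG mice. In the ileum it was 30.1, 31.2, 31.4, 34.7 and 41.4 CPM in sham AL mice, 15.3, 15.8, 16.01, 18.8 and 21.1 CPM in sham WM mice, and from 19.4 over 29.2 to 31.8 CPM in VSG mice. In the colon it was 22.9, 23.1, 26.9, 35.4 and 56.7 CPM in sham AL mice, 5.18, 12.7, 13.2, 15.5 and 17.03 CPM in sham WM mice, and from 16.9 over 32.4 to 38.93 CPM in VSG mice. Every sham WM library lay below every sham AL library of its region, and a VSG library overlapped the sham WM range in each region. Groups in which all sham WM libraries lay below all sham AL libraries occurred for 0.291%, 0.688% and 0.218% of tested genes in duodenum, ileum and colon.

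**Figure D1:**
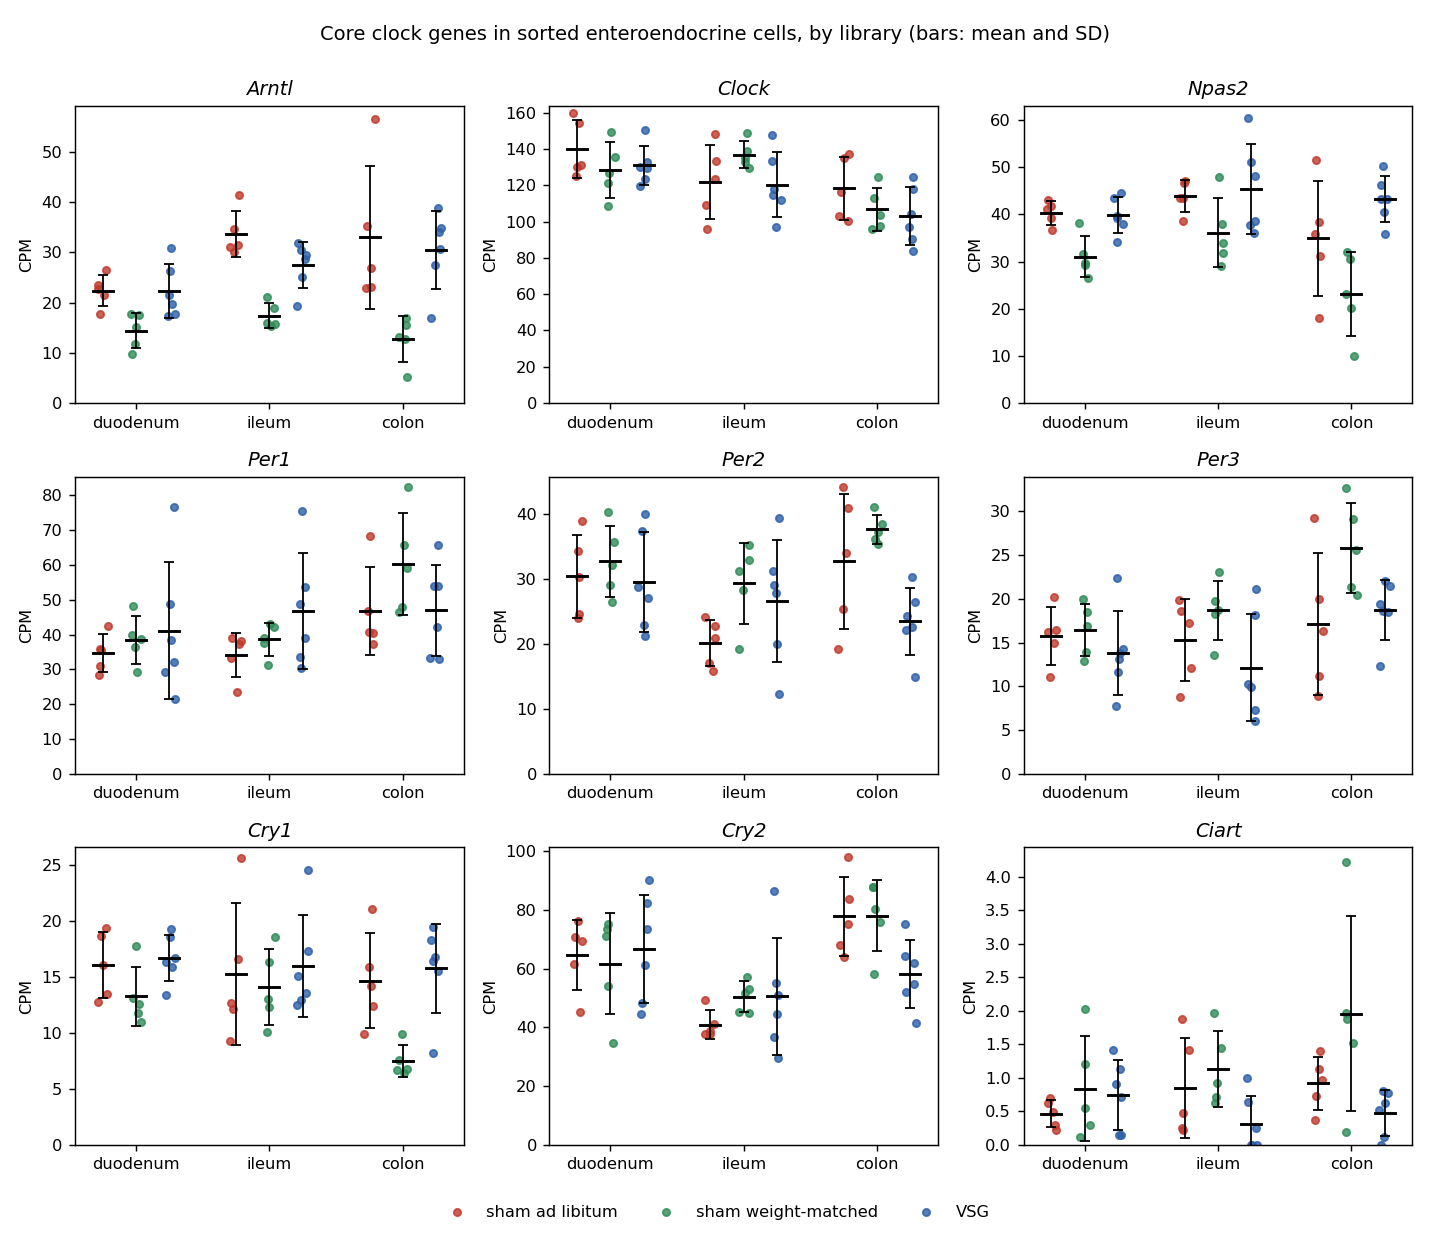
Level of each core clock gene in every library, in CPM on a scale that starts at 0, with points for libraries, coloured by surgery group, and bars for group means ± SD in the duodenum, ileum and colon. The 5 sham WM points of Arntl lie below all sham AL points in each region, and the colon means of Arntl are 33.0 CPM in sham AL, 12.7 CPM in sham WM and 30.5 CPM in VSG mice.

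As log2 differences averaged over the 3 regions, Arntl stood at −0.98 ± 0.13 (SE) in sham WM over sham AL mice and at 0.84 ± 0.13 in VSG over sham WM mice. Both comparisons use the same sham WM libraries, so they are not independent of each other. The SE of log2 differences, here and below, take libraries of 1 mouse as independent. For surgery differences averaged over regions they are too small where the regions of a mouse vary together. For VSG over sham AL mice it was −0.14 ± 0.13. Leaving out each mouse in turn gave 0.74 to 0.92 for VSG over sham WM. As a mouse's mean log2 CPM over its regions, taken in the 15 mice that had all 3, Arntl ran from 3.33 to 4.09 in sham WM mice, from 4.19 to 5.04 in VSG mice and from 4.68 to 5.01 in 4 sham AL mice. Sham AL mouse 17, with a duodenum library alone (4.57), and mouse 24, with ileum and colon, are not among them. Thus at the level of the mouse the sham WM group overlapped neither of the others, as held for 0.608% of genes between VSG and sham WM and 1.3% between sham WM and sham AL mice. The colon library of sham WM mouse 27, with 27 counts of Arntl, was the lowest of all 48. In colon libraries the summed EEC markers ran from 38400 to 99640 CPM in sham AL, from 29100 to 71520 CPM in sham WM and from 36460 to 66430 CPM in VSG mice, so that the groups overlapped. Markers of other cells differed in places between VSG and sham WM mice: of 7 enterocyte markers 1 was called lower over the regions (Sis, list median −0.57) and 1 in the duodenum (Fabp2, list median −1.20), and of 5 Paneth markers 1 in the duodenum (Defa17, list median −2.31). The enterocyte sum in the duodenum ran from 4925 to 36940 CPM in sham WM and from 4384 to 6090 CPM in VSG mice, and the part of these cells in the clock gene differences was not tested.

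Npas2, which can take the place of CLOCK in the complex, was also lowest in sham WM mice by group mean in each region, with smaller differences. In the duodenum the Npas2 level was 36.6, 39.2, 41.2, 41.8 and 43.0 CPM in sham AL mice, 26.5, 29.2, 29.8, 31.6 and 38.1 CPM in sham WM mice, and from 34.2 over 39.5 to 44.5 CPM in VSG mice. In the colon it was 17.99, 31.1, 35.8, 38.3 and 51.6 CPM in sham AL mice, 9.98, 20.1, 23.0, 30.5 and 32.04 CPM in sham WM mice, and from 35.9 over 43.3 to 50.3 CPM in VSG mice. All 6 VSG colon libraries lay above all 5 sham WM colon libraries, which held in that direction for 0.258% of genes, whereas both groups overlapped sham AL. In the ileum its level was 38.5, 43.5, 43.6, 46.7 and 47.0 CPM in sham AL mice, 28.98, 31.8, 34.0 and 37.9 CPM in 4 sham WM mice, and from 36.1 over 43.4 to 60.5 CPM in VSG mice. The ileum groups overlapped, and the remaining sham WM library, of mouse 21, lay above every sham AL library. The mean log2 difference over regions was 0.52 ± 0.11 for VSG over sham WM and −0.41 ± 0.11 for sham WM over sham AL mice. Clock, the usual partner of BMAL1, had group means between 102.9 and 140.1 CPM and differences of −0.07 ± 0.07 and −0.04 ± 0.07 in the same comparisons, so that of the 2 interchangeable partners it was Npas2 whose group means lay apart.

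The repressor genes did not share one direction. Cry1, a strong repressor of the complex, had colon levels of 9.86, 12.4, 14.2, 15.9 and 21.1 CPM in sham AL mice, 6.403, 6.72, 6.77, 7.57 and 9.87 CPM in sham WM mice, and from 8.22 over 16.6 to 19.5 CPM in VSG mice. The sham WM libraries overlapped the other groups only through their highest value and the lowest values of those groups. The colon difference of VSG over sham WM was 1.07 ± 0.23 on the log2 scale, against 0.33 ± 0.22 in the duodenum and 0.17 ± 0.22 in the ileum. Cry2, its paralogue, differed by −0.42 ± 0.20 in the colon and by −0.10 ± 0.11 over the regions.

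Per2, the period gene most tied to the repressor complex, had colon levels of 19.3, 25.3, 34.0, 40.9 and 44.2 CPM in sham AL mice, 35.4, 36.1, 37.2, 38.4 and 41.1 CPM in sham WM mice, and from 14.9 over 23.5 to 30.4 CPM in VSG mice. All VSG colon libraries lay below all sham WM colon libraries, as held in that direction for 0.185% of genes. Its log2 difference of VSG over sham WM was −0.67 ± 0.21 in the colon and −0.32 ± 0.12 over the regions. Per3, a period gene less needed for rhythm, differed by −0.44 ± 0.15 over the regions and ranged in the colon from 20.5 to 32.6 CPM in sham WM, from 8.84 to 29.3 CPM in sham AL and from 12.4 to 22.1 CPM in VSG mice. Per1, which also responds quickly to light, cAMP and corticosteroid, differed by 0.01 ± 0.13. The 3 period genes thus spread from no difference to a lower mean after VSG than in sham WM mice.

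Ciart had the widest differences and the fewest reads. Its colon level was 0.367, 0.731, 0.960, 1.13 and 1.41 CPM in sham AL mice, 0.186, 1.51, 1.87, 1.97 and 4.22 CPM in sham WM mice, and from 0 over 0.575 to 0.802 CPM in VSG mice. In the ileum it had no read in 3 of 6 VSG libraries and 0.617 to 1.97 CPM in sham WM mice. Apart from sham WM mouse 29, the sham WM colon libraries lay above all other colon libraries. The fitted log2 difference of VSG over sham WM was −1.34 ± 0.45 over the regions, a value that depends on the prior count where libraries are at 0.

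**Figure D2:**
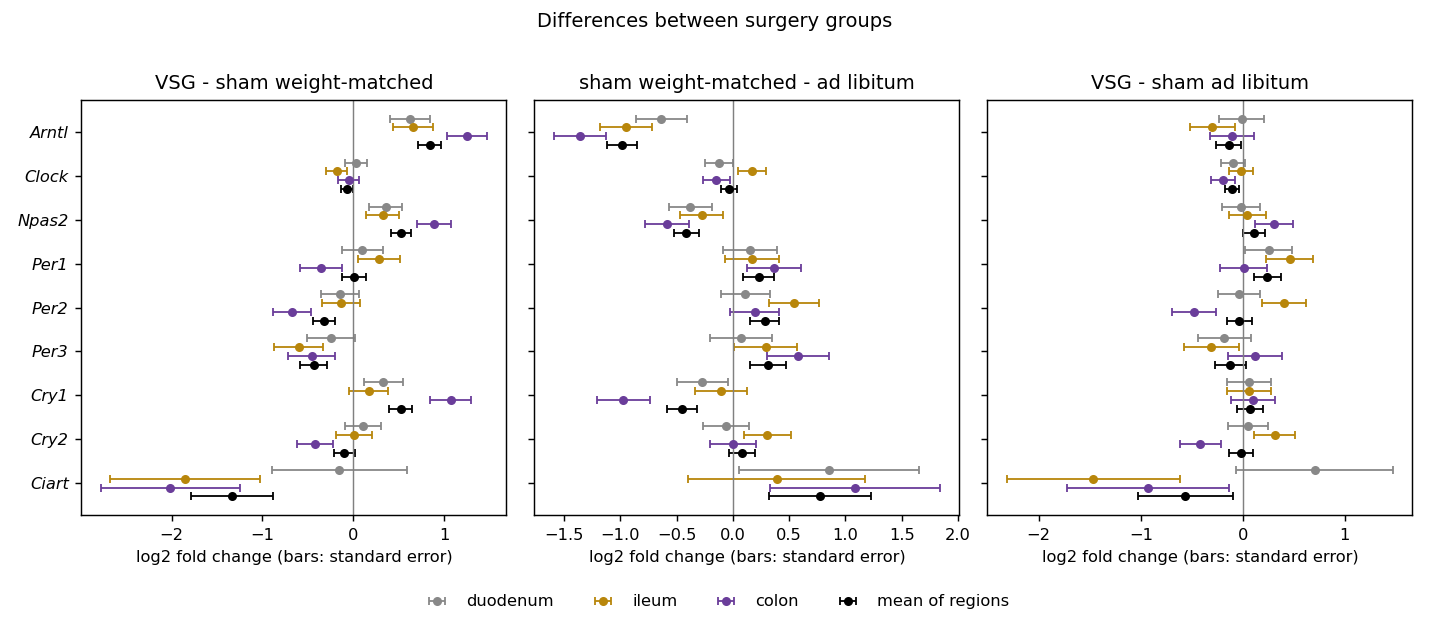
Log2 fold changes of the 9 clock genes from edgeR, with bars of ± 1 SE, for VSG over sham WM, sham WM over sham AL and VSG over sham AL, as the mean of regions and within each region. Arntl lies at 0.84 and −0.98 in the first and second comparisons and at −0.14 in the third, and Ciart has the longest bars.

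Of the 9 genes, 2 (Arntl and Npas2) passed an adjusted p of 0.05 in edgeR's quasi-likelihood test between VSG and sham WM mice over the regions, beside 0.245% of all genes. In the colon 3 passed (Arntl, Npas2 and Cry1; 0.0595% of genes). Between sham WM and sham AL mice 1 passed over the regions (Arntl; 0.0529% of genes) and 1 in the colon (Arntl; 0.0132% of genes). Since the list was drawn up with these comparisons known, the counts only describe it. The fit takes libraries of 1 mouse as independent. With counts summed per mouse, in the 15 mice with all regions, 0 members passed over the regions in either comparison. With only colon libraries in the fit, 0 passed in the colon in either comparison. Shares over all genes are not given for these settings, so these counts of 0 are not results about the members. The median log2 difference of the 9 members was −0.07 for VSG over sham WM and 0.08 for sham WM over sham AL, against 0.0021 and 0.0072 over all tested genes. In the duodenum and ileum 0 members passed in either comparison, beside 0.225% and 0.0463% of genes for VSG against sham WM and 0% for sham WM against sham AL, with 1 and 3 at an unadjusted p under 0.05 for VSG against sham WM and 1 and 2 for sham WM against sham AL, and 0 passed with DESeq2 or with limma voom.

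Between VSG and sham AL mice 0 of 9 members passed in edgeR over the regions, with 0 at an unadjusted p under 0.05 and 0 in DESeq2 and limma voom. Within regions 0 passed as well, with 2 at an unadjusted p under 0.05 in the colon and 0 in the duodenum and ileum. In that comparison edgeR called 0% of genes, and the differences of members over the regions ran from −0.56 ± 0.47 for Ciart to 0.24 ± 0.13 for Per1.

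Single mice decided some of these counts. Without VSG mouse 11 or sham WM mouse 29 the mean over regions of VSG against sham WM kept Arntl alone, as it did when the mouse entered limma voom as a random block. The colon count of 3 dropped to 1, Arntl, without any one of mice 11, 12, 16, 21, 22, 24, 25, 27, 28, 29 or 30. The colon call of Arntl between sham WM and sham AL mice was lost without sham WM mouse 21, sham WM mouse 27 or sham AL mouse 32, and in the fit with the random block. Its log2 difference there stayed negative each time.

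Levels along the gut could be tested, since region played no part in the choice of genes. Over the 3 surgery groups 2 of 9 members differed between ileum and duodenum (33.8% of all genes did), 4 for colon against duodenum (55% of genes) and 7 for colon against ileum (49.2% of genes). The largest tested difference was in Cry2, with levels over the 16 libraries of 34.8 to 90.4 CPM (median 70.2) for duodenum, 29.5 to 86.6 (45.01) for ileum and 41.6 to 97.9 (71.7) for colon. Its log2 difference was −0.45 ± 0.12 for ileum over duodenum (edgeR quasi-likelihood test, adjusted p = 0.00198) and 0.59 ± 0.12 for colon over ileum (adjusted p = 3.37e-05). The libraries of any 2 regions overlapped for Cry2 as for every other member, whereas ileum and duodenum were separate for 1.46% of all genes, colon and duodenum for 9.75%, and ileum and colon for 7.14%.

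Of the activators, Clock and Npas2 were lower in colon than ileum, and Arntl did not pass there (−0.11 ± 0.13, edgeR adjusted p = 0.502). Clock had means of 133.0 CPM (duodenum), 126.0 CPM (ileum) and 108.9 CPM (colon), with log2 differences of −0.28 ± 0.07 for colon over duodenum (edgeR adjusted p = 0.000421) and −0.21 ± 0.07 for colon over ileum (adjusted p = 0.0100). Npas2, with means of 37.2, 42.0 and 34.4 CPM in the same order, was lower in colon than ileum, at −0.34 ± 0.11 (adjusted p = 0.00773). Arntl, with means of 19.8, 26.3 and 25.7 CPM, was higher in ileum than duodenum by 0.39 ± 0.13 (adjusted p = 0.0161). Between colon and duodenum its difference of 0.28 did not pass (adjusted p = 0.0656).

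The period genes were higher in the colon than in the ileum, with differences of 0.37 for Per1 (edgeR adjusted p = 0.0210), 0.30 for Per2 (0.0442) and 0.42 for Per3 (0.0233). Against the duodenum the colon was higher for Per1 by 0.43 ± 0.13 (adjusted p = 0.00601) and for Per3 by 0.41 ± 0.15 (adjusted p = 0.0225). Cry1 went the other way and was lower in the colon, at −0.35 against the duodenum (adjusted p = 0.0188) and −0.33 against the ileum (adjusted p = 0.0327). The paralogues Cry1 and Cry2 thus differed in opposite directions between colon and ileum. Ciart, at means of 0.685, 0.735 and 1.07 CPM, passed in none of the region contrasts.

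**Figure D3:**
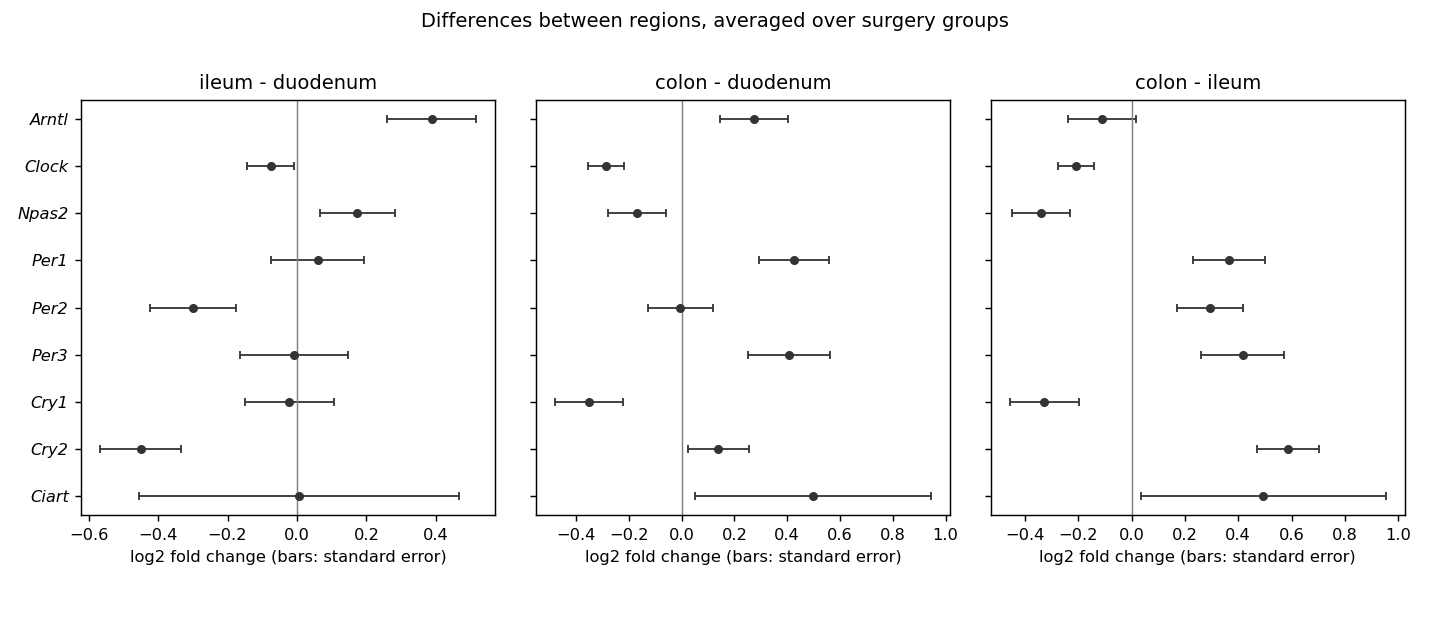
Log2 fold changes of the 9 clock genes between gut regions, averaged over the surgery groups, with bars of ± 1 SE. Between colon and ileum, Per1, Per2, Per3 and Cry2 lie above 0 and Clock, Npas2 and Cry1 below it, and Cry2 has the largest passing difference of 0.59.

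Mice served as their own comparison between regions, and with the mouse as a block Per2 also passed between ileum and duodenum (limma voom with a random block, adjusted p = 0.0343; edgeR with a fixed block, adjusted p = 0.0270). The second library index followed region closely, with 12 of 16 duodenum libraries sharing 1 of 4 indices and 11 of 16 colon libraries another. With that index as a covariate the passing members were 0 for ileum against duodenum, 1 for colon against duodenum (Cry2) and 2 for colon against ileum (Clock and Cry2). Shares over all genes are not given for that setting, so these counts do not show whether clock genes lost calls more than other genes. Clock then differed by −0.27 (adjusted p = 0.0130) and Cry2 by 0.65 (adjusted p = 0.000192) between colon and ileum, whereas Cry2 between ileum and duodenum turned to 0.15 (adjusted p = 0.728). Without sham AL mouse 13 the colon and ileum differed in 4 members, Clock, Npas2, Cry1 and Cry2, in place of 7. The calls of Clock, Npas2, Arntl and Cry2 stood without any single mouse, as did that of Per1 between colon and duodenum. Between colon and ileum the call of Per2 was lost without any one of mice 11, 12, 13, 16, 19, 21, 22, 24, 27, 28 or 29, that of Cry1 without mouse 12, 16, 18, 24, 27, 30 or 31, that of Per1 without mouse 13 or 21 and that of Per3 without mouse 13. Between colon and duodenum Cry1 was lost without mouse 12 and Per3 without mouse 13 or 27.

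Other cell types also followed region. All 7 enterocyte markers were lower in colon than duodenum and 4 of 4 colonocyte markers higher, with the enterocyte sum between 4384 and 36940 CPM in duodenum libraries and between 233 and 596 CPM in colon libraries. No enterocyte marker other than Lct was at 0 in any library. Whether these transcripts had a part in the region differences of the clock genes was not tested.

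The interaction of surgery with region passed for 0 of 9 members in edgeR's joint test and for 0% of all genes. One member, Cry1, had an unadjusted p under 0.05 (0.0388), DESeq2 called 0 of 9 members and limma voom 0. The larger surgery differences of Arntl, Cry1 and Npas2 in the colon than in the small intestine were therefore not shown to differ between regions.

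Over mice, deviations from the means of the 9 groups of surgery and region gave a view of the loop that the choice of genes did not use. Each mouse had 1 value per gene, the mean over its regions of the log2 CPM deviation from the group mean, and the relation of Arntl with each of the 8 other members was tested by permuting mice within surgery groups. Ciart ran against Arntl, with Pearson r = −0.671 over 17 mice (permutation p = 0.00666, adjusted over 8 pairs 0.0533) and Spearman rho = −0.713 (permutation p = 0.0032, adjusted 0.0256). Without the 2 mice farthest from the median of Arntl, r was −0.588, and within single regions it was −0.232 (duodenum), −0.392 (ileum) and −0.429 (colon). The rank relation passed the adjustment and the linear one did not.

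Per2 also ran against Arntl, with r = −0.562 (permutation p = 0.0238, adjusted 0.0951) and rho = −0.571 (adjusted 0.101), neither past the adjustment. The relation with Per1 (r = −0.531, adjusted permutation p = 0.171) rested on 2 mice, since r was −0.009 without them, and the same held for Npas2 (r = 0.414, adjusted permutation p = 0.235), at 0.004 without them. For Per3, Cry2, Clock and Cry1 r was −0.247, −0.232, 0.080 and −0.042. Of the 8 relations, 1 therefore passed, by rank alone.

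**Figure D4:**
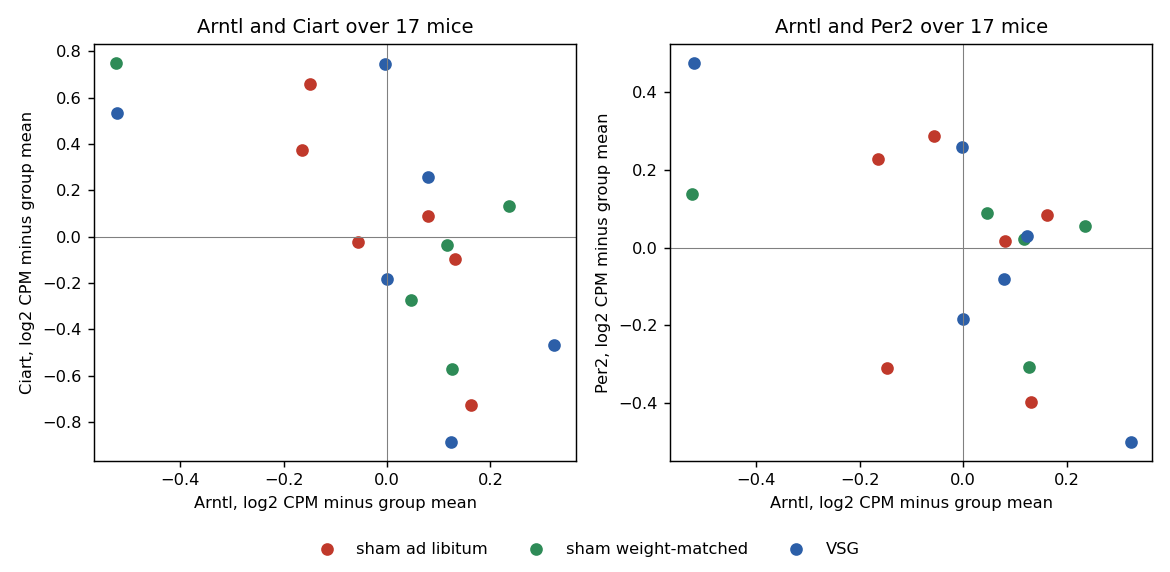
Deviation of Arntl (x axis) against that of Ciart (left) and of Per2 (right) in 17 mice, 1 point each, coloured by surgery group. Deviations are in log2 CPM from the mean of the library's surgery and region group, averaged over a mouse's regions. Mice with low Arntl have high Ciart (r = −0.671) and, with more scatter, high Per2 (r = −0.562), and VSG mouse 18 and sham WM mouse 27 lie at the low end of Arntl at −0.52 each.

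Those mice differed in more than Arntl. In VSG mouse 18 Arntl (−0.52) and Cry1 (−0.39) lay below the VSG means of the same regions on the log2 scale. Its Per1 (0.77), Per2 (0.48), Per3 (0.43), Cry2 (0.48) and Ciart (0.53) lay above them. In VSG mouse 28 Arntl lay above (0.32) and Per2 (−0.50), Per3 (−0.46), Cry2 (−0.52) and Ciart (−0.47) below. The other activators deviated less, with Clock at 0.085 and Npas2 at −0.10 in mouse 18 and at −0.13 and −0.011 in mouse 28. In both animals Arntl thus lay on the side of the mean opposite to Per1, Per2, Per3, Cry2 and Ciart, and Clock on the same side as those genes. Sham WM mouse 27, whose duodenum library stood apart, deviated from its group by −0.52 in Arntl and 0.75 in Ciart. Its Per1 (0.21) and Per2 (0.14) also lay above the mean and Per3 close to it (0.018). Its Cry2 (−0.29) and Clock (−0.082) lay below, on the side of Arntl. In sham WM mouse 21 Arntl (0.235), Per1 (0.19), Per2 (0.057), Per3 (0.20), Cry2 (0.21) and Ciart (0.13) all lay above the mean. The opposite signs thus did not hold in every mouse.

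How far a deviation was shared by the regions of a mouse differed between members. The correlation within a mouse was highest for Per1 at 0.534 ± 0.268 (jackknife SE), a value exceeded by 4.36% of tested genes. It was 0.391 for Per2 and 0.381 for Cry2, which 11.8% and 12.6% of genes exceeded. Arntl stood at 0.198 (36% of genes higher), Per3 at 0.143, Ciart at 0.086 and Npas2 at −0.008, beside a median of 0.121 over all genes. Without VSG mouse 18, Per1 dropped to 0.279 and Per2 to 0.277, and without VSG mouse 28 Cry2 was 0.239, so the order of these 3 genes rests on single animals.

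Library by library, some of the repressors varied with each other. Over the 48 libraries, which share mice and depth differences, the deviations from the means of the 9 groups correlated at 0.77 between Per2 and Per3, 0.67 between Per3 and Cry2, 0.61 between Per1 and Per2 and 0.52 between Per2 and Cry2. Arntl correlated at −0.36 with Per3, −0.35 with Per2 and Ciart, −0.34 with Per1 and −0.25 with Cry2, and at 0.34 with Npas2. Clock correlated positively with the same genes, at 0.47 with Per3, 0.40 with Cry2, 0.39 with Per2 and 0.23 with Per1. Cry1 and Ciart did not join them, with correlations of Cry1 from −0.20 to 0.074 and of Ciart from −0.091 to 0.24 with Per1, Per2, Per3 and Cry2. The negative values of Arntl rest in part on single animals, since over mice r turned to 0.158 with Cry2 and 0.0057 with Per3 without VSG mouse 18. The deviations of Cry2 (0.464), Clock (0.44) and Per3 (0.291) also followed the scaling factor of the library, and those of Ciart did so in the other direction (−0.33). Those of Per2 (0.365) and Per1 (0.357) followed the total count, and those of Cry1 did so in the other direction (−0.412). The part of these library measures in the correlations between members was not tested.

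**Figure D5:**
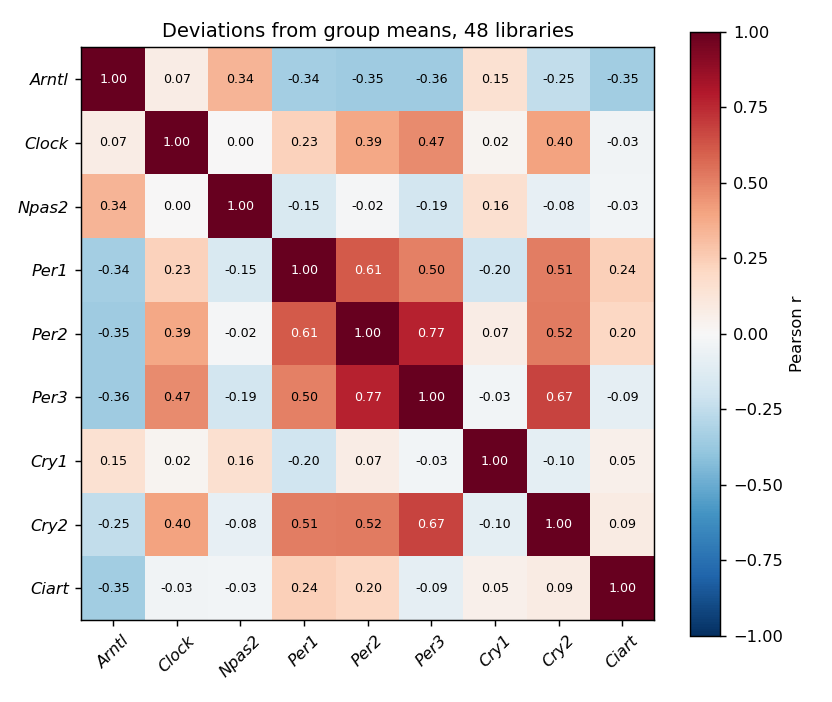
Pearson r between the clock genes over 48 libraries, as a matrix of 9 by 9 genes whose colour and number give r from −1 (blue) to 1 (red), computed on deviations from the means of the 9 groups in log2 CPM. The highest value is 0.77 between Per2 and Per3, and Arntl has negative values with Per1, Per2, Per3, Cry2 and Ciart.

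Among all tested genes, the deviations most like those of Arntl were in Gm16576 (0.511), Plcxd2 (0.503), Gata4 (0.501), Inip (0.501) and Dlgap1 (0.498). The most opposite were Nr1d2 (−0.532), which encodes the clock repressor REV-ERBβ, Tef (−0.532), a D-box activator, Jade1 (−0.523), Ccdc74a (−0.517) and Cyth1 (−0.515). A correlation over 0.5 with Arntl was rare, at 0.0331% of genes, whereas 7.17% of genes passed it with Cry2 and 4.05% with Per3. Each of these shares counts the member itself, and whether such values exceed chance was not tested. For Per2 the most alike gene was Per3 (0.771). The most alike gene was Lrp6 for Clock (0.748), Gab2 for Npas2 (0.630), Pim3 for Per1 (0.750), Inppl1 for Per3 (0.780), Itsn1 for Cry1 (0.606), Gm16011 for Cry2 (0.819) and Stx3 for Ciart (0.594).

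Genes of the second loop and the clock outputs were read from a list of 12, of which 11 were tested. Between VSG and sham WM mice 1 was higher and 4 were lower over the regions, beside 0.245% of all genes called in either direction. Nfil3, the D-box repressor, was 1.26 ± 0.19 higher on the log2 scale, and Dbp, a D-box activator, and Nr1d1, encoding REV-ERBα, were lower, at −1.62 ± 0.15 and −1.15 ± 0.14. Between sham WM and sham AL mice 4 were higher and 0 lower, beside 0.0529% of all genes. Among them were Dbp at 1.48 ± 0.16, Nr1d1 at 0.76 ± 0.14 and Tef at 0.67 ± 0.12. These genes share the sham WM libraries across both comparisons and were listed with earlier values known, and 0 passed between VSG and sham AL mice in edgeR, with 2 at an unadjusted p under 0.05 and 0 in DESeq2 and limma voom. Exons of Bhlhe41, Dbp and Nr1d1 overlap those of antisense genes by 1280, 539 and 263 bases. Other genes of the list do so by at most 193 bases. Reads of those stretches are uncertain as for Arntl and Cry2.

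Along the gut most genes of the same list were higher in the colon. Between colon and duodenum 8 of 11 were higher, 1 was lower and 2 did not pass, beside 55% of all genes called in either direction, with Rora, an activator of Arntl, at 2.94 ± 0.21, Bhlhe41, a repressor at E-boxes, at 2.53 ± 0.31 and Dbp at 1.68 ± 0.16 (edgeR adjusted p = 2.44e-16, 2.34e-09 and 5.09e-13). For colon over ileum the counts were the same, beside 49.2% of all genes, with Bhlhe41 at 3.66 ± 0.36. Between ileum and duodenum 1 was higher, Rora at 1.28 ± 0.21, and 1 lower, Bhlhe41 at −1.13 ± 0.38. Those 2 of 11 calls made a lower share than the 33.8% of all genes called there. With the library index as a covariate, a setting added for this list after seeing the data, 9 still passed for colon over ileum, 4 for colon over duodenum (Nr1d1, Rora, Dbp and Bhlhe41, all higher) and 1 for ileum over duodenum (Rora, higher). The share of all genes called with that covariate is not given here.

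Inputs and modifiers of the clock gave fewer calls between surgery groups. The lists were 9 genes set down under turnover and modification of clock proteins, Timeless among them, 5 corticosteroid response genes and 6 immediate early genes. In edgeR 0 of them passed between VSG and sham WM mice over the regions, with 3, 1 and 6 at an unadjusted p under 0.05. DESeq2 called 1 immediate early gene there, and limma voom 0 of the 3 lists. Their median log2 differences were −0.013, −0.0017 and 0.79, so that the immediate early genes had higher means after VSG without a call. Between sham WM and sham AL mice 0 passed in edgeR, DESeq2 or limma voom, with 1, 1 and 0 at an unadjusted p under 0.05. Between colon and ileum 4 genes of the turnover list were higher and 1 was lower, Timeless at −1.67 ± 0.19 (edgeR adjusted p = 5.08e-10), with Btrc, which marks PER proteins for degradation, at 0.69 ± 0.13. The 4 markers of crypt and dividing cells were also all lower in colon than ileum (list median −1.89), and their part in the Timeless difference was not tested. The calls among turnover genes, 5 of 9, stood near the 49.2% of all genes called in that contrast. Of the corticosteroid response genes 1 of 5 passed between colon and ileum, Klf9 at 0.55 ± 0.12 (adjusted p = 0.000109), with a list median of 0.0043.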

How the data were processed

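RNA of sorted EECs was measured in 48 libraries of 17 mice. The authors aligned single-end reads of 50 bases to GRCm38 with STAR 2.5.1 (from the submitters' processing notes) and deposited read counts per gene of Ensembl annotation release 91, as whole numbers without normalization. Symbols of 53360 of 53465 identifiers came from GENCODE M21, and 0 sample columns were left unused. The members and lists were chosen with earlier results of these data known.

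Counts were tested with edgeR 4.0.16 in R 4.3.3 (filterByExpr over 9 groups of surgery and region, TMM scaling, robust quasi-likelihood fit, Benjamini-Hochberg adjustment over 15126 genes, threshold 0.05). CPM are TMM-scaled, per 1000000 counts of tested genes, and log2 CPM used a prior count of 2. Surgery contrasts were averaged over regions or taken within one, and region contrasts averaged over surgery groups. Correlations used 100000 permutations of mice within surgery groups, two-sided. The tests were tried on simulated data drawn without an effect of the mouse, so that trial does not cover libraries that share a mouse. Alternatives were DESeq2 1.42.0, its size factors in edgeR, no filter and a stricter filter (at least 10 counts), voom (limma 3.58.1) taking each mouse for a random block, a fixed mouse block, counts summed per mouse, single regions, the library index as covariate, and omission of libraries and of each mouse.

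Mouse numbers come from the sample descriptions and join libraries of the same animal across regions. Over 46 such pairs the median correlation of deviations over 2000 genes was 0.105 (−0.0201 to 0.389), with 26 pairs over 0.1. All 9 members were named, from each other list at most the 3 genes of largest change past the threshold, and by likeness the 5 most alike and 5 most opposite genes for Arntl and 1 for each other member. Each library is 1 region of 1 mouse. Contrasts within a region compare different animals, but their p-values use a spread estimated over all 48 libraries. That fit holds up to 3 libraries of a mouse and, without the block, takes them as independent. Only in the fits of single regions do p-values rest on the animals of that region alone. Depth limits Ciart most.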

Additional observations from a re-analysis of the deposited data

Results flagged for a closer look

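Dixon's ratio at the 95% level was applied to the 81 groups of 5 or 6 libraries (9 clock genes in 9 groups of surgery and region), and 2 single libraries stood far from the rest of their group, where chance alone flags about 1 in 20 groups. In VSG colon, Cry1 was 8.22 CPM in mouse 18, the lowest of 6 libraries, and the same mouse had the lowest Arntl level of that group, 16.9 CPM. In VSG colon, Per3 was 12.4 CPM in mouse 25, the lowest of 6 libraries.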

How the results depend on the processing

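Counts of clock genes past the threshold changed with mice and settings. Between VSG and sham WM mice the colon count of 3 was 1 with DESeq2's size factors or without mouse 12's distal libraries (ileum, colon), and 0 when only colon libraries were fitted, and omission of single mice gave 1 to 3. Over the regions the count of 2 was 1 to 3 without single mice and 0 with counts summed per mouse. Between sham WM and sham AL mice the count of 1 was 0 with summed counts over the regions, 0 in the colon fitted alone, and 0 to 1 in the colon without single mice. Between colon and ileum 3 members passed in place of 7 without a filter, 2 with the library index and 4 to 7 without single mice. The index left 0 between ileum and duodenum and 1 between colon and duodenum. Shares over all genes are not given for these settings, and the causes were not tested.

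The mouse pairs libraries across regions. As a random replicate block in limma voom it left 1 of 2 calls between VSG and sham WM mice over the regions and 0 of 1 between sham WM and sham AL mice in the colon, and with a random or fixed block 3 in place of 2 members differed between ileum and duodenum. Of all genes, edgeR called 37 between VSG and sham WM mice, DESeq2 102 and voom with the block 9, and between sham WM and sham AL mice 8, 13 and 4. Between ileum and duodenum edgeR called 5110 of 15126 genes and voom with the block 5691, so calls over all genes rose there too. The number with the fixed block is not given.

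Differences between surgery groups kept their sign for called members and moved by less than 1 SD between libraries in all 1836 values without a mouse and all 870 under other settings. That SD is of single libraries, whereas each difference is between means of at least 5. Leaving out 1 mouse could hardly fail this criterion, so it does not measure how stable the differences are. Between regions the small difference of Per2 in colon over duodenum turned to 0.0051 with DESeq2's size factors, 0.0049 in DESeq2, 0.0042 with a stricter filter, 0.021 with the random block, 0.022 with the fixed block and 0.040 without the duodenum library of mouse 27. That of Ciart in ileum over duodenum turned to −0.0053 in DESeq2, −0.015 without a filter, −0.066 and −0.079 with random and fixed blocks, −0.086 without the libraries of mouse 12 and −0.58 with the index. That of Per3 turned to 0.016 without the libraries of mouse 12, 0.0049 with the fixed block and 0.41 with the index. With the index, ileum over duodenum also turned for Clock (0.10), Per1 (−0.023) and Cry2 (0.15), and colon over ileum for Arntl (0.024).

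Without single mice, log2 differences ranged from −0.075 to 0.052 for Per2 in colon over duodenum, and in ileum over duodenum from −0.095 to 0.073 for Per3, −0.083 to 0.021 for Cry1 and −0.19 to 0.25 for Ciart. The correlation with Arntl ranged from −0.733 to −0.579 for Ciart, −0.654 to −0.376 for Per2, −0.408 to 0.0057 for Per3, −0.605 to 0.158 for Cry2, −0.449 to 0.045 for Cry1 and −0.040 to 0.244 for Clock.

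The relation of Arntl with Ciart passed with a prior count of 0.5 (r = −0.685), after a variance-stabilizing transformation (−0.703) and over the 15 mice with all regions (−0.671), where that with Per2 also passed (−0.658). With Cry1 r was −0.678 in the duodenum, where it passed, 0.269 in the ileum, 0.425 in the colon and 0.0028 over 15 mice. With Clock r was −0.227 in the ileum, −0.044 over 15 mice and −0.018 without the duodenum library of mouse 27.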
